A study of Homo sapiens with 6 samples.

Results

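The genes described here are 7 transcripts that laboratories often use as internal references in quantitative PCR, namely ACTB, HPRT1, TBP, GUSB, PPIA, YWHAZ and IPO8. They were taken by name from the 60675 gene identifiers counted in each library, all 7 were found, and all 7 were among the 15261 genes with enough counts to be tested. The libraries came from MDA-MB-231, an established human triple-negative breast cancer cell line with mesenchymal features. Control cells received no added vitamin C (3 wells), and treated cells received vitamin C, given as sodium ascorbate, at 100 μM for 3 days with the medium renewed each day (3 wells). RNA depleted of ribosomal RNA was sequenced, and the quantitative RT-PCR of the same study was scaled to GAPDH, which is not one of the 7. The question asked of each gene was therefore how far its level moved with vitamin C, and how a target measured against it would change. The model is a single cell line. By the methods an experiment had 3 wells per group, so the 3 libraries of a group may be wells of 1 experiment, and the p-values measure the spread between wells, which may be technical.

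A reference gene corrects a PCR value for unequal input of RNA, and it does so only if its own level per unit of RNA is the same in the conditions compared. For this reason the usual references are drawn from processes that nearly every cell runs, and a set is preferred in which the genes belong to unrelated processes. ACTB encodes beta-actin of the cytoskeleton, HPRT1 encodes the purine salvage enzyme hypoxanthine phosphoribosyltransferase, and TBP encodes the TATA-binding protein of the basal transcription machinery. GUSB encodes the lysosomal hydrolase beta-glucuronidase, PPIA encodes cyclophilin A, a peptidyl-prolyl isomerase that helps proteins fold, YWHAZ encodes the phosphoserine-binding adaptor 14-3-3 zeta, and IPO8 encodes importin 8, a nuclear import receptor. GAPDH encodes a glycolytic enzyme, and genes of glycolysis are known targets of hypoxia-inducible factors, whose degradation depends on prolyl hydroxylases of the dioxygenase family that use iron and can be helped by ascorbate.

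Between 13434130 and 22373591 reads fell in genes in each library. Unmapped reads made up 24.2% to 34.4% of the control libraries and 24.7% to 49.5% of the vitamin C libraries, with the highest share in vitamin C well 2. In all 6 libraries the mesenchymal markers VIM, CD44, ZEB1 and CAV1 were expressed, whereas SPARC, also on that list, had at most 0.511 counts per 1000000 reads in genes (CPM). ESR1 had no count, FOXA1 and PGR were at 0 in 5 of 6 libraries each, GATA3 had 4.43 to 6.45 CPM and ERBB2 had 38.8 to 50.1 CPM. The leukocyte and endothelial markers PTPRC, CD3E and VWF stayed at or below 0.149 CPM and PECAM1 at or below 2.16 CPM. PECAM1 was itself called higher after vitamin C, from 0.958 ± 0.339 to 2.04 ± 0.141 CPM (SD, n = 3 each, edgeR adjusted p = 0.0439). The call rested on 10 to 43 counts per library, and DESeq2 did not make it (adjusted p = 0.0675). The part of PECAM1 in the other results was not tested. With edgeR's quasi-likelihood test and Benjamini-Hochberg adjustment over all genes tested, 1080 genes, or 7.08%, had an adjusted p below 0.05. Of these, 531 genes, or 3.48% of those tested, were lower after vitamin C. Levels below are CPM after scaling by the trimmed mean of M values (TMM), and differences are log2 ratios of vitamin C over control. These are shares of the RNA sequenced, and fewer cells making a transcript cannot be told apart from less transcript per cell.

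Among the 7 genes, HPRT1 and PPIA were called lower after vitamin C, none was called higher, and 5 passed in neither direction. The share of genes called lower in the whole table is the 3.48% given above. The differences ran from a fall of HPRT1 to 0.732 of its control level to an estimate of 1.22-fold for GUSB. The median log2 difference of the 7 was -0.24, against 0.02 over all genes tested. Without adjustment for the number of genes, 4 had a p below 0.05 and a lower level, against 13.1% of all genes tested, and 1 (GUSB) had a higher level, against 14.3%. DESeq2, which called 10.7% of the genes to which it gave an adjusted p, called the same pair, HPRT1 and PPIA, and no others of the 7.

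**Figure D1:**
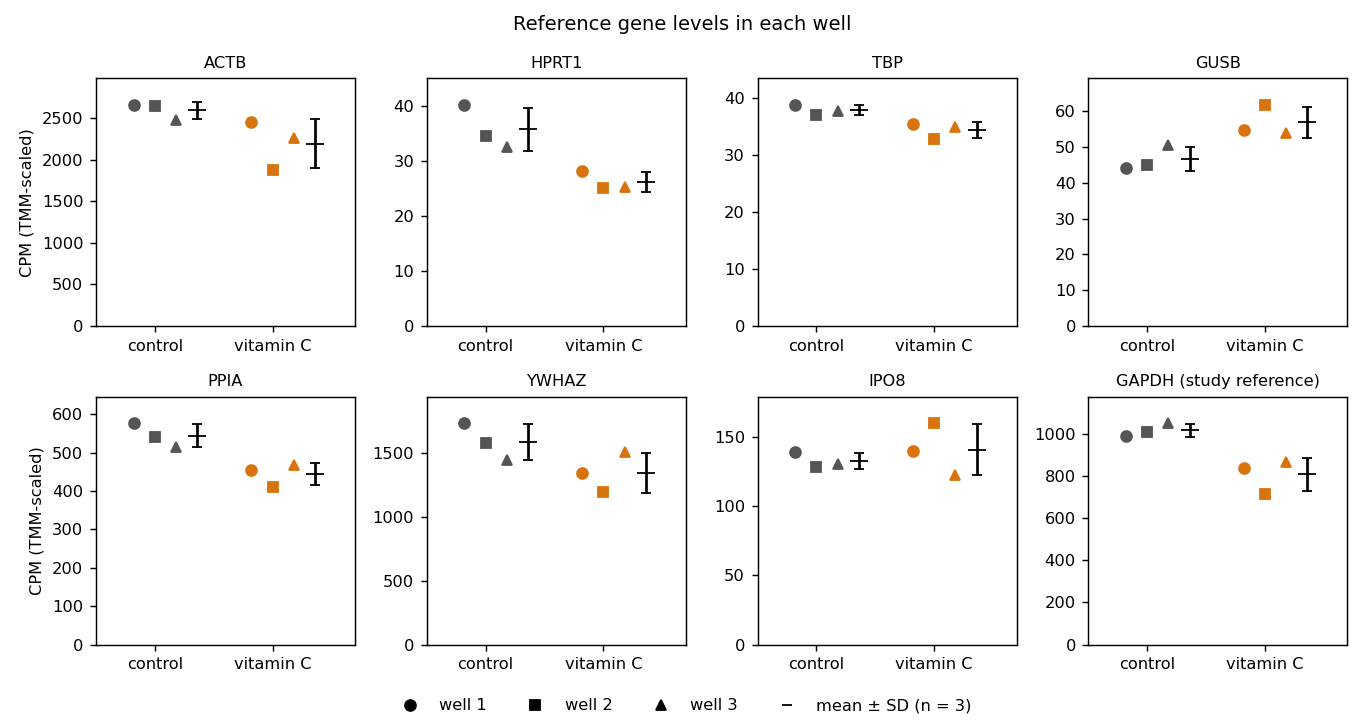
Level of the 7 reference genes and of GAPDH in each well, in TMM-scaled CPM on axes that start at 0, with control wells in grey, vitamin C wells in orange, and bars for mean ± SD of 3 wells. The 3 vitamin C wells lie below all control wells for ACTB, HPRT1, TBP, PPIA and GAPDH and above them for GUSB, whereas for YWHAZ vitamin C well 3 lies between control values and for IPO8 the vitamin C wells lie on both sides of the controls.

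GAPDH, the reference of the study (ENSG00000111640, chromosome 12, 6534512 to 6538374, plus strand, GRCh38), is given first because the other ratios start from it. Its level was 991, 1009.6 and 1049.9 CPM in the control wells and 839, 717 and 868 CPM in the vitamin C wells. The groups did not overlap, and vitamin C well 2 was the lowest of the 6. The mean was 1017 ± 30.2 CPM (SD, n = 3) in control and 808 ± 79.8 CPM (SD, n = 3) after vitamin C. The log2 difference was -0.33 (SE 0.08, 95% interval -0.51 to -0.15), a level of 0.795 of control, with an edgeR adjusted p of 0.0388 and a DESeq2 adjusted p of 0.00349. Leaving out 1 well at a time, GAPDH was called without vitamin C well 3 (adjusted p = 0.015) and in none of the other 5 fits, where its adjusted p was between 0.0675 and 0.112. The call was also lost with upper-quartile factors (0.0548), with library size only (0.0519) and with the replicate number as a block (0.0609). An unstranded count could include an antisense gene, ENSG00000269968, whose own counts were 1.71% to 4.56% of those of GAPDH.

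The PCR primers for GAPDH used in the study are shown because they fix which part of the transcript its scaling read. Both lines are 5′ to 3′.

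GAPDH forward primer: tggacctgacctgccgtcta

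GAPDH reverse primer: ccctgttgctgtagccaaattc

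On GRCh38 the forward primer lies in exon 8 of transcript ENST00000229239 (chr12:6537786-6537805) and the reverse primer is complementary to exon 9 (chr12:6538111-6538132). The product is 243 bases long in the spliced transcript and 347 bases long in the genome, so the pair spans an intron. Both primers were found in 9 of 11 annotated GAPDH transcripts and in no transcript of another gene. The reverse primer alone matched 23 sites in the genome exactly, and the forward primer matched 1. The RNA-seq count covers all exons of the gene and is thus a wider measure than the PCR product.

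HPRT1 (ENSG00000165704, chromosome X, 134460165 to 134520513, plus strand) showed the largest difference of the 7. It was at 40.3, 34.6 and 32.5 CPM in the control wells and at 28.2, 25.1 and 25.2 CPM in the vitamin C wells. All vitamin C wells were below all control wells, and control well 1 stood highest. The mean fell from 35.8 ± 4.003 to 26.2 ± 1.76 CPM (SD, n = 3 each). The log2 difference was -0.45 (SE 0.10, 95% interval -0.67 to -0.23) with an edgeR adjusted p of 0.0299 and a DESeq2 adjusted p of 0.00485. The size exceeded that of 85.0% of the genes tested. The call was lost without control well 1 (log2 difference -0.36, adjusted p = 0.113), control well 2 (-0.48, 0.0831) or vitamin C well 2 (-0.42, 0.0632), all with the same sign.

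PPIA (ENSG00000196262, chromosome 7, 44796680 to 44824564, plus strand) was at 577, 542 and 516 CPM in the control wells. In the vitamin C wells it was at 455, 411 and 467 CPM. Again the groups were apart, and vitamin C well 2 was lowest. The mean fell from 545 ± 30.3 to 445 ± 29.4 CPM (SD, n = 3 each), which is a log2 difference of -0.29 (SE 0.08, 95% interval -0.46 to -0.12) and a level of 0.816 of control. The edgeR adjusted p was 0.046 and the DESeq2 adjusted p was 0.00791. This call lay close to the threshold, and of the 6 fits that left out 1 well only that without vitamin C well 3 kept it (adjusted p = 0.0255, otherwise 0.0579 to 0.159). It was also lost with upper-quartile factors (0.0638), with library size only (0.0578) and with the replicate number as a block (0.0856). PPIA has 89 annotated pseudogenes by symbol, whose counts together were 8.19% to 9.83% of its own, and adding them gave -0.31 with an adjusted p of 0.0401.

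Promoter sequences are printed for HPRT1 and PPIA, because these are the 2 genes of the 7 that were called. RefSeq windows of 300 bases that end shortly after the transcript start (GRCh38.p14) were held for 5 of the 7 genes, and for all 5 the start was that of the MANE transcript in GENCODE. ACTB and YWHAZ had no entry. The entry for GAPDH is placed at a start 747 bases downstream of that of ENST00000229239, inside the gene, and was not used. Capitals mark the matches on either strand to ACGTG, the core of the hypoxia response element, to GGGCGG, the GC box, and to TATAAA, and each line is 5′ to 3′ on the strand of the gene.

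HPRT1 (chrX:134459915-134460214, plus strand): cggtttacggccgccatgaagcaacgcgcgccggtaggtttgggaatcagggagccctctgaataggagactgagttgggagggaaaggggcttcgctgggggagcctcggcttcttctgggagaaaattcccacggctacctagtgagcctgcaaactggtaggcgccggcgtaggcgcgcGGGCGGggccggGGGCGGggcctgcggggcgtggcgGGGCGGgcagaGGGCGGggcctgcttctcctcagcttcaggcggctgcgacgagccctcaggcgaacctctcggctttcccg

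PPIA (chr7:44796431-44796730, plus strand): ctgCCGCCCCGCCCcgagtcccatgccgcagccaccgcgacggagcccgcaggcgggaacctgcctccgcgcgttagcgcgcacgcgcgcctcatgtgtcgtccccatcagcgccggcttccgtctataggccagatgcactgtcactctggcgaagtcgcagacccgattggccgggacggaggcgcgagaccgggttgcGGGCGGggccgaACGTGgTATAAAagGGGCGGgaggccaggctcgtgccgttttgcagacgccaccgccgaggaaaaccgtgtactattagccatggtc

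The PPIA window held 1 ACGTG, 4 GC boxes and 1 TATAAA, with the ACGTG 1 base before the TATAAA. HPRT1 held 4 GC boxes and neither of the other motifs. TBP held 1 GC box, GUSB held 2 and IPO8 held none of the 3 motifs. Among 35116 such windows, 21.4% held ACGTG, 44.95% held GGGCGG and 11.53% held TATAAA. These are matches of letters and no binding was measured.

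ACTB (ENSG00000075624, chromosome 7, 5526409 to 5563902, minus strand) was the most abundant of the 7 per length, at 589 CPM per kilobase of exon in control and 498 after vitamin C. Its level in the control wells was 2659, 2642 and 2477 CPM. In the vitamin C wells it was 2449, 1877 and 2259.8 CPM. The groups did not overlap, with vitamin C well 1 just below control well 3, and the lowest value was again that of vitamin C well 2. Its mean was 2593 ± 100.5 CPM in control and 2195 ± 291 CPM after vitamin C (SD, n = 3 each). The log2 difference was -0.24 (SE 0.09, 95% interval -0.45 to -0.03) and did not pass the test (edgeR adjusted p = 0.128). Without vitamin C well 2 the estimate was -0.14 (adjusted p = 0.27).

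The other cytoplasmic actin, ACTG1, gives a check within the same protein family. Its mean was 1805 ± 56.9 CPM in control and 1896 ± 113 CPM after vitamin C (SD, n = 3 each), a log2 difference of 0.07 (95% interval -0.09 to 0.23). The count of ACTB divided by that of ACTG1 in the same well was 1.42, 1.49 and 1.401 in control. After vitamin C it was 1.37, 0.934 and 1.19. The ratio was lower in all vitamin C wells, by -0.32 on the log2 scale, with a two-sided exact permutation p of 0.1, the smallest that 3 against 3 wells can give. Beta- and gamma-actin transcripts therefore differed in direction of the estimate, but no difference of either gene passed the test across all genes.

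YWHAZ (ENSG00000164924, minus strand of chromosome 8, 100916523 to 100953388) was at 1731, 1577 and 1448 CPM in the control wells. In the vitamin C wells it was at 1339.6, 1191 and 1506 CPM. The groups overlapped, since vitamin C well 3 lay above control well 3. Means of 1585 ± 142 and 1346 ± 157 CPM (SD, n = 3 each) gave a log2 difference of -0.24 (SE 0.10, 95% interval -0.45 to -0.02), which did not pass (edgeR adjusted p = 0.142). Without vitamin C well 3 the estimate was -0.33 with an adjusted p of 0.0394. Without control well 1 it was -0.17 (0.396).

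TBP (ENSG00000112592, chromosome 6, 170554302 to 170572870, plus strand) had the smallest spread of the 7. It was at 38.8, 37.0 and 37.6 CPM in the control wells and at 35.5, 32.7 and 34.8 CPM in the vitamin C wells. The wells of the groups were apart. The coefficient of variation over all 6 wells was 6.03%, and only 11.9% of the genes tested had a smaller one. Means of 37.8 ± 0.887 and 34.4 ± 1.44 CPM (SD, n = 3 each) gave a log2 difference of -0.14 (SE 0.08, 95% interval -0.31 to 0.04, edgeR adjusted p = 0.29). The interval still allows a level as low as 0.805 of control.

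GUSB (ENSG00000169919, chromosome 7, 65960684 to 65982215, minus strand) was the one gene of the 7 with all vitamin C wells above the control wells. It was at 44.2, 45.01 and 50.4 CPM in control. After vitamin C it was at 54.9, 61.7 and 53.9 CPM, with the highest value in vitamin C well 2. Means of 46.5 ± 3.39 and 56.8 ± 4.27 CPM (SD, n = 3 each) gave a log2 difference of 0.29 (SE 0.09, 95% interval 0.10 to 0.48), which missed the threshold in edgeR (adjusted p = 0.0652) and in DESeq2 (adjusted p = 0.0729). Without vitamin C well 3 the edgeR adjusted p was 0.0437, and in the other fits that left out 1 well it was 0.0649 to 0.206. GUSB has 19 annotated pseudogenes by symbol, and their counts came to 26.1% to 36.3% of its own, the largest such share among the 7. Whether reads were exchanged between GUSB and these copies was not tested. With these counts added the log2 difference was 0.25 (edgeR adjusted p = 0.0671).

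IPO8 (ENSG00000133704, chromosome 12, 30628988 to 30695869, minus strand) had the estimate nearest to 0. It was at 138.9, 128.1 and 129.95 CPM in the control wells and at 139.7, 159.5 and 122.6 CPM in the vitamin C wells. The vitamin C wells enclosed all control wells, with well 2 highest and well 3 lowest of all 6. Means of 132 ± 5.80 and 141 ± 18.5 CPM (SD, n = 3 each) gave a log2 difference of 0.09 (SE 0.09, 95% interval -0.12 to 0.29, edgeR adjusted p = 0.587). Without vitamin C well 2 the estimate changed sign to -0.02.

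A p above the threshold does not show that a gene stayed level, so the intervals were read against a margin. None of the 7 genes had a 95% interval wholly inside 1.2-fold in either direction, a margin that held 14.2% of all genes tested. For IPO8 the interval reached 1.22-fold, just past the margin, and for TBP it reached down to 0.805 of control. A 1.5-fold margin held 6 of the 7, all but HPRT1, where it held 61.8% of all genes. In 5 of the 7 genes the wells of the groups did not overlap, against 32.3% of all genes tested. Vitamin C well 2 was the lowest of the 6 wells for 5 genes and the highest for GUSB and IPO8, and control well 1 was the highest for the other 5. Vitamin C well 2 also had the largest share of unmapped reads, 49.5%, and the smallest TMM factor, 0.972. The part of this library's quality in the values was not tested, and without it alone HPRT1 stood at -0.42, PPIA at -0.24 and GUSB at 0.22 on the log2 scale. With both wells left out, none of the 7 was called (HPRT1 -0.33, PPIA -0.20, GUSB 0.19 on the log2 scale), and the interval of IPO8 came inside 1.2-fold.

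**Figure D2:**
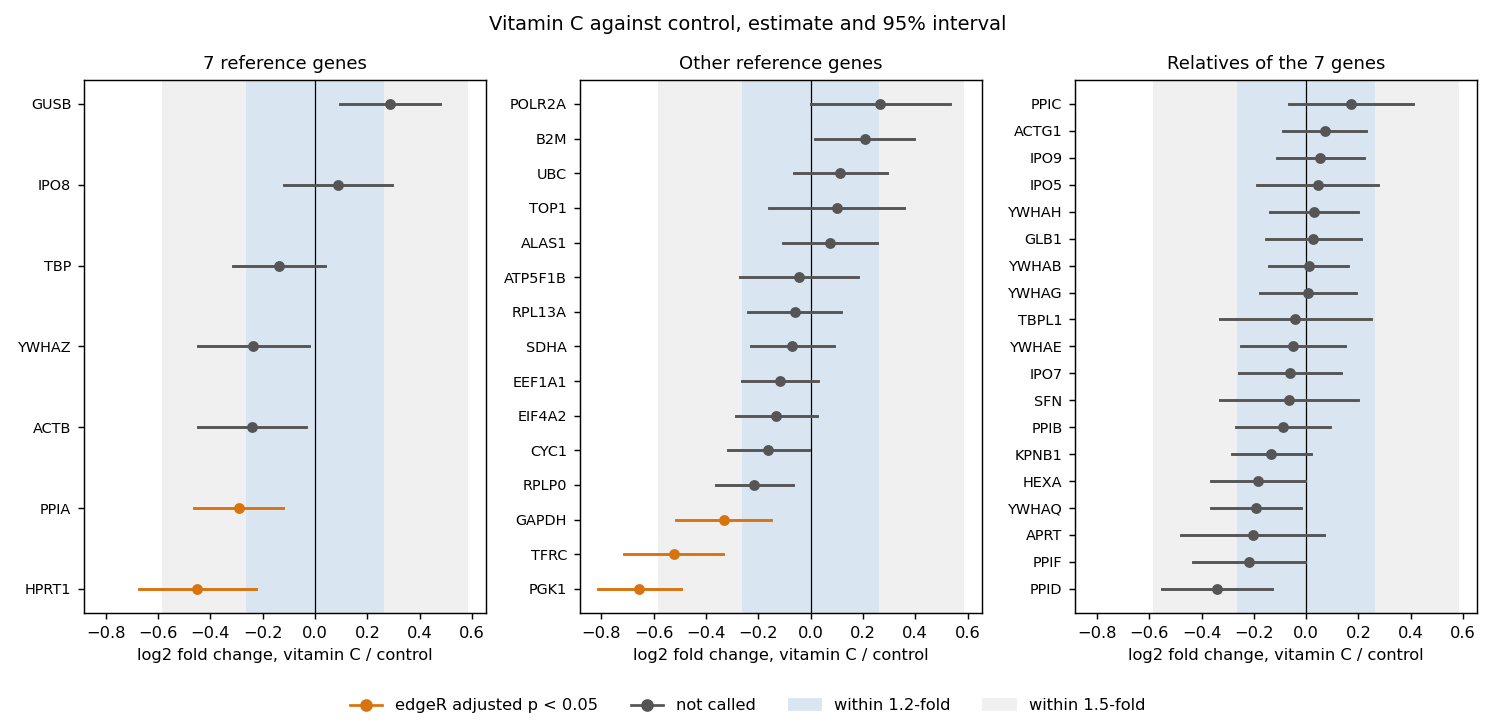
Log2 difference (vitamin C over control, 3 wells each) with its 95% interval from the edgeR fit for the 7 reference genes (left), 15 other reference genes including GAPDH (middle) and 19 relatives of the 7 (right), in orange where the adjusted p was below 0.05, over shaded bands for 1.2-fold and 1.5-fold. In the left panel the intervals of HPRT1, PPIA, ACTB and YWHAZ lie below 0, that of GUSB lies above 0, those of TBP and IPO8 cross 0, and none stays inside 1.2-fold, whereas 4 of the middle and 8 of the right panel do.

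Division by GAPDH within a well removes library scaling, and GAPDH was the reference of the PCR. Relative to GAPDH, 4 of the 7 genes had overlapping wells and 3 had wells apart. The share of all genes with wells apart after this division was not computed. GAPDH was itself lower after vitamin C, which raises any ratio to it. The mean log2 ratio differed between groups by 0.04 for PPIA, 0.09 for ACTB, 0.10 for YWHAZ and -0.11 for HPRT1, all 4 with overlapping wells. It was higher after vitamin C by 0.20 for TBP, 0.42 for IPO8 and 0.62 for GUSB, with wells apart for these 3. For GUSB the ratio was 0.0446, 0.0446 and 0.0480 in control and 0.0654, 0.0861 and 0.0621 after vitamin C, a 1.54-fold difference. For IPO8 it was 0.140, 0.127 and 0.124 in control and 0.167, 0.222 and 0.141 after vitamin C, a 1.33-fold difference. The two-sided exact permutation p was 0.1 for TBP, IPO8 and GUSB, the smallest this design allows, and 0.233 after Benjamini-Hochberg adjustment over the 7 ratios. It was 0.5 to 0.7 for the other 4. None of these ratios can pass a threshold of 0.05 with 3 wells per group.

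The spread of the count ratio of each pair over all 6 wells was then compared, as is done when reference genes are ranked for PCR. The stability measure M of a gene is the mean, over the other 6 genes, of the SD of the log2 ratio, and a low M means a gene that keeps its proportion to the rest. M was 0.164 for TBP, 0.168 for PPIA, 0.186 for ACTB and 0.187 for YWHAZ. It was 0.235 for HPRT1, 0.256 for IPO8 and 0.327 for GUSB. Thus GUSB was the least stable gene, and it kept that place when each well was left out in turn (6 of 6), whereas the most stable was TBP in 4 of 6 and PPIA in 2 of 6. Neighbours such as TBP and PPIA, or ACTB and YWHAZ, differed in M by less than leaving out a single well moved it (0.122 to 0.180 for TBP).

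Of 21 pairs, 12 had ratios that did not overlap between the groups. The share among pairs of other genes was not computed, and the 21 pairs reuse the same 7 genes. The tightest was PPIA to YWHAZ, with an SD of 0.0678, and the widest was HPRT1 to GUSB, with an SD of 0.445. When the least stable gene was removed step by step, GUSB left first, then IPO8, HPRT1, TBP and ACTB, and PPIA with YWHAZ remained. Both genes of that last pair had estimates below control, with log2 differences of -0.29 and -0.24, so a constant ratio between them came with a lower share of the library for each. IPO8, in contrast, had the smallest difference under library scaling and the second largest M. Its M was 0.0797 within the control wells and 0.259 within the vitamin C wells. Leaving out 1 well at a time gave M of 0.147 to 0.280 for IPO8 and 0.200 to 0.259 for HPRT1, so the order of these genes depended on single wells. Within the control wells alone M ranged from 0.0763 to 0.179, and within the vitamin C wells from 0.131 to 0.259. These values describe the wells and carry no test, since every ratio shares its genes and wells with others.

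**Figure D3:**
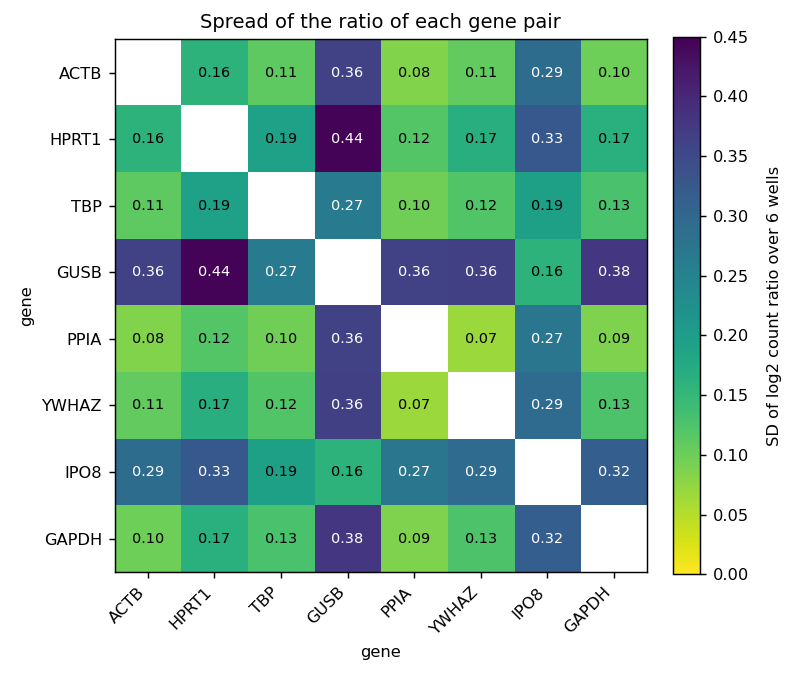
SD over the 6 wells of the log2 count ratio for every pair of the 7 genes and GAPDH, from 0 (yellow, constant proportion) to the widest (dark purple). ACTB, PPIA, YWHAZ, TBP and GAPDH form pairs of low spread, from PPIA with YWHAZ at 0.0678 to TBP with GAPDH at 0.130, and GUSB and IPO8 are wider against all of them.

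A geometric mean of several references is often used in place of a single gene. That of the 7 genes was 220.6, 207.7 and 204 CPM in the control wells and 196.9, 185 and 190.9 CPM in the vitamin C wells. It was thus lower in every treated well, at 0.906 of control. GAPDH over this geometric mean differed by -0.19 on the log2 scale with overlapping wells (two-sided exact permutation p = 0.2). For TBP and IPO8 alone, a pair picked after the values were seen, the geometric mean differed by -0.03 with overlapping wells.

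How much the choice of reference moves a target was followed with CYP1B1 and NDRG1, which, in the RNA-seq under library scaling, had the largest rise and the largest fall among the genes the study also measured by PCR. CYP1B1 encodes a cytochrome P450 enzyme induced through the aryl hydrocarbon receptor. With library scaling it rose 1.93-fold (log2 difference 0.95, SE 0.08, edgeR adjusted p = 0.000254). Divided by GAPDH the same counts gave 2.44-fold. The other references gave 2.63-fold with HPRT1, 2.37 with PPIA, 2.30 with ACTB, 2.28 with YWHAZ, 2.13 with TBP, 1.83 with IPO8 and 1.58 with GUSB. The geometric mean of the 7 gave 2.13-fold. In every case the wells of the groups were apart. With a target chosen for its large difference, none of these references moved enough to turn the direction.

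NDRG1, a stress-responsive gene known to be induced by hypoxia, fell to 0.387 of control with library scaling (log2 difference -1.37, SE 0.16, edgeR adjusted p = 0.00185). Divided by GAPDH it stood at 0.501 of control. HPRT1 gave 0.540, the mildest fall, and GUSB gave 0.325, the deepest. TBP gave 0.437, IPO8 gave 0.375 and the geometric mean of the 7 gave 0.438. The wells were apart under every reference here too. References that were lower after vitamin C raised the ratio of CYP1B1 and made the fall of NDRG1 smaller, which follows from the division itself.

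**Figure D4:**
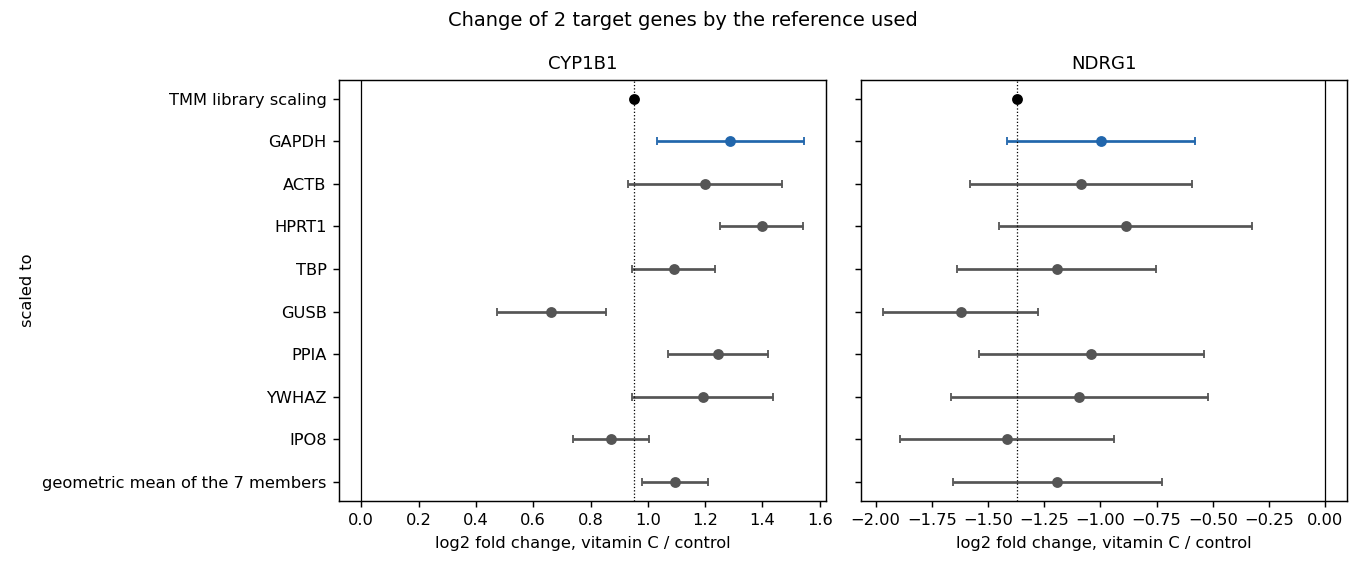
Log2 difference of CYP1B1 and NDRG1, vitamin C over control, when their counts are divided by each reference, beside the value from TMM library scaling (black point and dotted line, no bar). Bars are the square root of the summed squared SDs of the log2 ratio in the 2 groups (3 wells each); CYP1B1 ranges from 1.58-fold with GUSB to 2.63-fold with HPRT1, and NDRG1 from 0.325 with GUSB to 0.540 with HPRT1.

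Beyond the 7, 15 further genes in common use as references were read from the same fit, GAPDH among them. Of these, 3 were called lower, against 3.48% of all genes tested, none was called higher and 12 passed in neither direction. The median log2 difference was -0.07, against 0.02 over all genes tested. The 3 were GAPDH, PGK1 and TFRC. PGK1, which encodes a second glycolytic enzyme, fell from 535 ± 28.4 to 340 ± 10.9 CPM (SD, n = 3 each, log2 difference -0.65, edgeR adjusted p = 0.00167). TFRC, the transferrin receptor of iron uptake, fell from 1115 ± 116 to 776 ± 38.7 CPM (SD, n = 3 each, -0.52, adjusted p = 0.0102). Both are also among genes the study picked from these libraries, so their direction is not independent evidence. DESeq2 called 4 lower, the same 3 and RPLP0, a protein of the large ribosomal subunit. Among the 13472 genes with an adjusted p, DESeq2 called 857 lower, and 10.7% in either direction.

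Of these 15 genes, 4 had a 95% interval inside 1.2-fold, against 14.2% of all genes tested. The share among genes of similar abundance was not computed. These 4 are named here after their values were seen. RPL13A, a ribosomal protein gene, had a log2 difference of -0.06 (95% interval -0.24 to 0.12). SDHA, of the mitochondrial respiratory chain, had -0.07 (-0.23 to 0.09). ALAS1, of haem synthesis, had 0.07 (-0.11 to 0.25). EEF1A1, a translation elongation factor, had -0.12 (-0.26 to 0.03). The counts of 0 of 7 and 4 of 15 were not tested against each other.

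Finally, 19 relatives of the 7, from the same protein families or enzyme groups, were compared. edgeR called none of them in either direction, against 7.08% of all genes tested. An unadjusted p below 0.05 was found for 4, all lower, against 13.1% of all genes. DESeq2 called 1, PPID, a large cyclophilin, lower. Among the 13472 genes with an adjusted p, it called 857 lower, and 10.7% in either direction. The median log2 difference was -0.05, against 0.02 over all genes tested. Of the 19, 8 had an interval inside 1.2-fold, against 14.2% of all genes tested, and here too no share was computed for genes of similar abundance. The most abundant were ACTG1, given above, KPNB1 and YWHAB. KPNB1, the import receptor importin beta, went from 1379.6 ± 22.2 to 1257 ± 57.2 CPM (SD, n = 3 each, log2 difference -0.13, 95% interval -0.29 to 0.02). YWHAB, the 14-3-3 beta gene, was at 631 ± 27.1 and 635 ± 7.46 CPM (SD, n = 3 each, 0.01, -0.14 to 0.16). Of 6 relatives of YWHAZ in the 14-3-3 family, 4 lay inside 1.2-fold, whereas none of 4 relatives of PPIA did.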

How the data were processed

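RNA-seq was analysed for 3 control and 3 vitamin C libraries, grouped by the sample labels. Per the labels and the submitters' processing notes, base calling used CASAVA 1.4, trimming used Trim Galore and alignment to hg38 used STAR. The deposited values are raw counts, 1 per Ensembl gene and library, which the authors had not normalized. Neither the strand setting, the Ensembl release nor the STAR version is given in the sources used here. Summary lines, 50.6% to 69.7% of each file's total, were left out. Symbols and positions came from GENCODE 44 (56558 of 60675 identifiers).

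Counts were tested in R 4.3.3 with edgeR 4.0.16 (TMM, filterByExpr with a minimum count of 10, glmQLFit, glmQLFTest, Benjamini-Hochberg), with no covariate. DESeq2 1.42.0 and limma-voom 3.58.1 were alternatives. Intervals used the SE of that fit and a t quantile. The biological coefficient of variation was 9.40%. Ratios within a well used raw counts and exact permutation tests. The scripts were tested on simulated data. Named genes were the 7 and GAPDH, every called gene of the other lists and otherwise their 3 most abundant, and the PCR targets with the largest rise and fall and a mean of at least 100 counts. The genes and lists were chosen with earlier results of these data known. Pseudogenes were matched by symbol. Some genes of the comparison lists are not reported here.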

Additional observations from a re-analysis of the deposited data

How the results depend on the processing

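Of the genes tested, edgeR called 1080, with 50.8% of the calls higher. Upper-quartile factors gave 1064 calls, 64.6% of them higher, and DESeq2 gave 1443, 40.6% of them higher. No filter gave 2245 calls, the likelihood ratio test 1982, leaving out 1 well 128 to 1900, and leaving out control well 1 and vitamin C well 2 together, chosen after seeing the data, 268. Of the 7 reference genes, 2 were called lower, against 1 with upper-quartile factors or library size only, 4 without a filter (with ACTB and YWHAZ), 0 to 3 when 1 well was left out and 0 without both those wells. None was called higher, against 1 (GUSB) with the likelihood ratio test and 0 to 1 when 1 well was left out. The count inside 1.2-fold, 0, became 1 (IPO8) without a filter and without both wells, 0 to 1 when 1 well was left out, and 6 with a 1.5-fold margin. Relatives called, 0, became 1 (PPID) without a filter, with the likelihood ratio test or with DESeq2, and 0 to 1 when 1 well was left out. The estimate of IPO8 ran from -0.02, a change of sign, without vitamin C well 2 to 0.18 without vitamin C well 3. The mean log2 ratio of the 7 to GAPDH was 0.19. With 1 of the 7 as the reference instead, the mean was taken over the remaining genes only. It was 0.35 with HPRT1, -0.0043 with TBP, -0.50 with GUSB and -0.26 with IPO8. These shifts follow from the construction of the ratio, and other causes were not tested. PPIA and GAPDH lost their calls with upper-quartile factors (adjusted p = 0.0638 and 0.0548) and with library size only (0.0578 and 0.0519). Wells with the same number did not deviate together (correlations -0.016 to -0.056), and wells with different numbers gave -0.048 to 0.107. The labels do not say whether the numbers pair wells, and 3 wells per group cannot settle it. With a replicate block, edgeR called 731 genes and 1 of the 7, HPRT1, while PPIA (adjusted p = 0.0856) and GAPDH (0.0609) were not called. The libraries held 13434130 to 22373591 gene counts, with 3 wells per group, and the part of depth in the width of the intervals was not tested. In the main fit a difference of 1.2-fold or more was not excluded for any of the 7.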
